A study of Homo sapiens with 36 samples.

Results

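The MS4A genes encode small membrane proteins that cross the membrane 4 times, and 5 of them, MS4A3, MS4A4A, MS4A6A, MS4A7 and MS4A14, were followed here in human acute myeloid leukaemia cells treated with a protein degrader. They were picked by name from the 35490 genes that the transcript tables could be summed to, and 58 of the 207175 listed transcripts belong to them. The pick was made with the response to treatment known: MS4A6A was taken because it was higher after treatment in both lines. All comparisons of treated with control samples for these 5 genes are therefore descriptions, with no test.

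The family (membrane-spanning 4-domains, subfamily A) sits in 1 cluster on chromosome 11 and is best known for MS4A1, the B-cell antigen CD20, and MS4A2, the beta chain of the high-affinity IgE receptor. MS4A proteins lie at the cell surface or in endosomal membranes and act beside other receptors, whose signalling or uptake they modulate. In the myeloid lineage, MS4A3 marks granulocyte-monocyte progenitors and has been tied to cell-cycle control and to the uptake of cytokine receptors, whereas MS4A4A, MS4A6A and MS4A7 are typical of monocytes and macrophages.

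The 2 established cell lines used are both labelled wild type. MOLM-13 is a monocytic leukaemia line with a KMT2A fusion and an internal tandem duplication in FLT3, and MONO-MAC-6 is a monocytic line with a KMT2A fusion. Each was given DMSO, the solvent control, or A9, a proteolysis-targeting chimera that the series' design text says degrades IKK2 and NR4A1 while its title names IKK1, for 72 h. A9 was used at 0.125 µM in MOLM-13 and at 0.25 µM in MONO-MAC-6, so that line and dose cannot be told apart, and the lines were quantified in separate tables and were not tested against each other. Each of the 4 groups had 3 samples with 3 libraries each, 36 libraries in all, and the libraries of a sample were averaged. Values are TPM, transcript abundances per length scaled to a fixed total per library, summed over the transcripts of a gene, so that levels can be compared between genes. Each library sums to 1000000 TPM and holds no read counts, so the depth behind a value is not known beyond the sequencing target that the labels state. Nothing in the labels says that the 3 samples of a group were separate cultures, so p-values cover the spread between these samples only. In bulk RNA, a change in the number of cells of a kind and a change in RNA per cell cannot be told apart.

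Markers of cell types were judged by their mean over all 6 samples of a line, both treatments together. Of 8 monocytic markers, 5 reached 1 TPM in MOLM-13, where CSF1R, CD14 and FCN1 did not, and 6 in MONO-MAC-6, where CSF1R and FCN1 did not. By treatment, CSF1R in MOLM-13 averaged 0.514 TPM with DMSO and 1.17 TPM with A9. The summed level of the 8 was 358 to 383 TPM with DMSO and 571 to 633 TPM with A9 in MOLM-13, and 3412 to 3961 and 8114 to 8434 TPM in MONO-MAC-6. The 4 T-cell markers were all under 1 TPM. Of the erythroid, mast-cell, megakaryocytic and epithelial or stromal markers, HBA1 and TPSAB1 reached 1 TPM, both in MONO-MAC-6, where the 3 mast-cell and basophil markers summed to 26.8 to 37.1 TPM with DMSO and 75.4 to 85.0 TPM with A9, with CPA3 and FCER1A listed at 0. Their part in the results was not tested. The mRNAs of IKBKB, CHUK and NR4A1, whose proteins the label texts name, did not pass the test in either line (limma adjusted p 0.279 to 0.933), which says nothing of the proteins. In MONO-MAC-6 the DMSO sample numbered 1 stood apart: on the first principal component, with 70.2% of the variance, it lay at 63.3 and the other 5 samples between -23.3 and 2.72. The MONO-MAC-6 gene differences and list calls were therefore also computed without it, whereas the transcript, start-site and marker values and the correlations include it. In MOLM-13 the first component, with 67.6% of the variance, did not separate the treatments: the DMSO samples lay between -14.8 and 31.2 and the A9 samples between -38.03 and 13.9, with DMSO sample 1 and A9 sample 3 at the ends.

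With DMSO, the order of the 5 genes differed between the lines. In MOLM-13, MS4A6A led with 29.7 ± 1.50 TPM (SD, n = 3), above MS4A3 with 20.9 ± 2.42 and MS4A7 with 19.5 ± 4.01, whose samples overlapped. In MONO-MAC-6, MS4A3 led with 88.7 ± 5.42 TPM (SD, n = 3), followed by MS4A7 with 41.1 ± 10.9 and MS4A6A with 5.04 ± 0.919, with no overlap between neighbours. MS4A14 and MS4A4A came last in both lines, at 1.58 ± 0.589 and 0.621 ± 0.136 TPM (SD, n = 3) in MOLM-13 and at 1.28 ± 0.458 and 0.469 ± 0.158 TPM in MONO-MAC-6. A filter that asked for 1 TPM or more in a group's mean left 4 of the 5 genes in each line and removed MS4A4A in both.

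After A9, all 3 treated samples lay above all 3 control samples for 2 of the 5 genes in MOLM-13, MS4A3 and MS4A6A, and for 4 of the 5 in MONO-MAC-6, all but MS4A4A. None lay wholly below. Of all MOLM-13 genes past the filter, 8.58% had the treated samples wholly above and 6.42% wholly below, and of all MONO-MAC-6 genes 27.2% and 10.7%. Since the genes were chosen on this contrast, nothing is read from those counts.

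**Figure D1:**
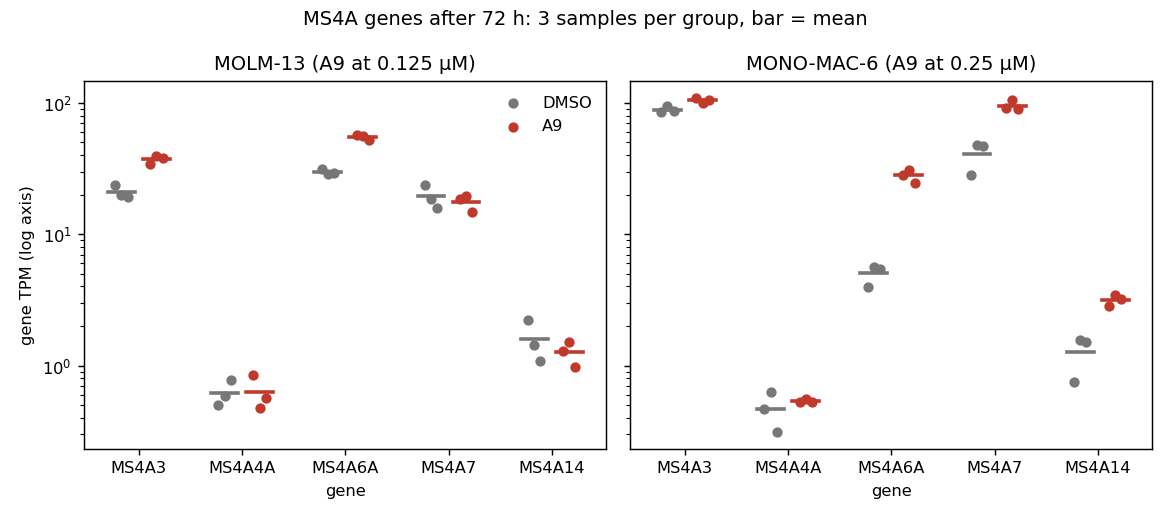
Gene TPM on a log axis for the 5 MS4A genes in MOLM-13 (left) and MONO-MAC-6 (right), with 1 point per sample (grey, DMSO; red, A9; 3 samples each) and a bar at the mean. The A9 points of MS4A6A lie above the DMSO points in both lines, at 52.2 to 56.9 against 28.5 to 31.4 TPM in MOLM-13 and at 24.8 to 31.0 against 3.98 to 5.66 TPM in MONO-MAC-6, while those of MS4A7 and MS4A14 do so in MONO-MAC-6 and overlap in MOLM-13.

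MS4A3 (ENSG00000149516, GRCh38 chromosome 11, 60056587 to 60071128, plus strand), the progenitor gene of the group, stood at 23.6, 20.0 and 19.1 TPM in the MOLM-13 DMSO samples and at 34.2, 39.4 and 38.3 TPM in the A9 samples. The lowest treated sample was well above the highest control, and the mean was 37.3 ± 2.77 TPM (SD, n = 3) with A9, 1.78-fold that with DMSO. On the log2(TPM + 1) scale the difference was 0.81 (SE 0.11). In MONO-MAC-6, where the gene was most abundant, the DMSO samples had 84.8, 94.9 and 86.4 TPM and the A9 samples 109.5, 99.3 and 105 TPM. The groups did not overlap, but the nearest samples were close, and the ratio of means was 1.18, a log2 difference of 0.23 (SE 0.064) with A9 at 104 ± 5.10 TPM (SD, n = 3). The median log2 difference over all genes tested in MONO-MAC-6 was 0.16, and -0.05 in MOLM-13. With each library scaled by its median ratio the MONO-MAC-6 difference for MS4A3 was 0.057, and without DMSO sample 1 it was 0.20.

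MS4A6A (ENSG00000110077, GRCh38 chromosome 11, 60172014 to 60184666, minus strand), a gene of monocytes and macrophages, had 31.4, 28.5 and 29.1 TPM in the MOLM-13 DMSO samples and 56.9, 55.7 and 52.2 TPM with A9. The treated mean was 55.0 ± 2.45 TPM (SD, n = 3), 1.85-fold higher, with a log2 difference of 0.87 (SE 0.055). MONO-MAC-6 cells had 3.98, 5.66 and 5.47 TPM with DMSO and 28.4, 31.0 and 24.8 TPM with A9. Here the lowest treated sample was several times the highest control. The mean with A9 was 28.0 ± 3.12 TPM (SD, n = 3), 5.57-fold higher, with a log2 difference of 2.27 (SE 0.16), or 2.14 without DMSO sample 1. Even so, MONO-MAC-6 cells with A9 had about the MS4A6A level of MOLM-13 cells with DMSO, as far as separately quantified tables can be set side by side.

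MS4A7 (ENSG00000166927, GRCh38 chromosome 11, 60378482 to 60395951, plus strand), a gene of mature monocytes and macrophages, did not separate the groups in MOLM-13. The DMSO samples had 23.8, 18.6 and 16.0 TPM and the A9 samples 18.6, 19.4 and 14.8 TPM, a log2 difference of -0.13 (SE 0.20). Leaving out 1 sample gave -0.257 to 0.019, the highest without DMSO sample 1. In MONO-MAC-6 the DMSO samples had 28.4, 47.5 and 47.3 TPM, with sample 1 the low one, and the A9 samples 91.2, 105 and 90.3 TPM. The mean with A9 was 95.4 ± 8.02 TPM (SD, n = 3), 2.32-fold that with DMSO. The log2 difference was 1.23 (SE 0.25), and 0.99 without DMSO sample 1. With A9 the MS4A7 samples overlapped those of MS4A3, which with DMSO had been the more abundant.

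MS4A14 (ENSG00000166928, GRCh38 chromosome 11, 60378530 to 60417756, plus strand), a less studied member, followed MS4A7 at a far lower level. MOLM-13 cells had 2.23, 1.42 and 1.08 TPM with DMSO and 1.29, 1.52 and 0.977 TPM with A9, overlapping groups with a log2 difference of -0.17 (SE 0.21). Leaving out 1 sample gave -0.314 to 0.0026, the highest without DMSO sample 1. The MONO-MAC-6 samples had 0.750, 1.57 and 1.51 TPM with DMSO and 2.83, 3.44 and 3.20 TPM with A9. The treated samples were all above, at 3.16 ± 0.309 TPM (SD, n = 3), a ratio of 2.47. The log2 difference was 0.89 (SE 0.19) with a pseudocount of 1, 1.30 with a pseudocount of 0.1, and 0.71 without DMSO sample 1.

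MS4A4A (ENSG00000110079, GRCh38 chromosome 11, 60185702 to 60317944, plus strand), a macrophage gene whose product associates with the receptor dectin-1, was near the floor throughout. MOLM-13 cells had 0.505, 0.589 and 0.771 TPM with DMSO and 0.850, 0.478 and 0.563 TPM with A9. MONO-MAC-6 cells had 0.469, 0.627 and 0.311 TPM with DMSO and 0.524, 0.553 and 0.527 TPM with A9. The groups overlapped in both lines. None of its 7 transcripts reached a mean of 0.5 TPM in any group.

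Promoter windows are shown because MS4A3 and MS4A6A differed from MS4A7 and MS4A14 in MOLM-13 while all were higher with A9 in MONO-MAC-6, and because NR4A1 and the NF-kB pathway, which IKK2 activates, act through known DNA elements. The windows are RefSeq promoter sequences (GRCh38.p14, 250 bases before to 50 after an annotated start, 8 windows for the 5 genes), printed up to the first annotated exon, 5′ to 3′ on the gene's strand, with matches to the searched motifs in capitals.

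MS4A3, chr11:60056415-60056586, plus strand: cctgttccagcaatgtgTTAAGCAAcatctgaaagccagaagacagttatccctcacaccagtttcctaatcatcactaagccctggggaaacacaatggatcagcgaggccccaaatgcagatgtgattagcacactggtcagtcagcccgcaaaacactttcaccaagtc

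MS4A6A, chr11:60184667-60184916, minus strand: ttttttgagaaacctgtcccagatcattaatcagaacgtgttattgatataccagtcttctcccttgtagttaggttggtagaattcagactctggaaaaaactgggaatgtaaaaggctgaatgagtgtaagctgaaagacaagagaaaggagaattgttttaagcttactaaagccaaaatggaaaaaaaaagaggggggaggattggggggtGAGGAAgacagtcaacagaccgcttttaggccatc

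MS4A7, chr11:60378282-60378481, plus strand: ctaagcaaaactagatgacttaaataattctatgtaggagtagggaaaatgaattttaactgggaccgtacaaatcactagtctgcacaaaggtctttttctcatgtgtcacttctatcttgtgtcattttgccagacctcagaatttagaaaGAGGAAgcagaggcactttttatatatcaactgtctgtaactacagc

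MS4A4A, chr11:60280416-60280540, plus strand: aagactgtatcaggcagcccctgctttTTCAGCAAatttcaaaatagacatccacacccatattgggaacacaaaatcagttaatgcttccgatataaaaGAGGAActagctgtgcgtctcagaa

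On both strands of the full windows, 5 motifs were searched: the NR4A response element AAAGGTCA, the NF-kB motif, the PU.1 core GAGGAA, the C/EBP motif TTNNGCAA and the AP-1 motif TGANTCA. The PU.1 core was found in 5 of the 8 windows, for MS4A3, MS4A4A, MS4A6A and MS4A7, and in 27.9% of all 35116 RefSeq promoter windows of 300 bases. It lay 35 bases before the upstream MS4A6A start, 97 bases before the MS4A7 start, and 40 bases after the MS4A3 start, beyond the stretch printed. MS4A4A, which was hardly expressed, held 3 copies of the PU.1 core. The C/EBP motif was found in 4 of the 8, for MS4A3, MS4A4A and MS4A6A (10.5% of all windows), and the AP-1 motif in 1, for MS4A14 (7.71%). The C/EBP match of MS4A6A is a single site that lies in both overlapping downstream windows and is counted in each. The NR4A element was in none of the 8 windows and in 1.22% of all, and the NF-kB motif in none of the 8 and in 5.91% of all. These are matches of letters in short windows and do not show binding.

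Single transcripts were looked at next, since a gene sum can hide a change of form. Transcript TPM are estimates that divide shared reads between overlapping models, so that small transcripts nested in a longer one are the least certain. In MOLM-13, 28 of the 58 transcripts averaged 0.5 TPM or more in a group, of which 6 had the treated samples all above, 0 all below and 22 overlapped. The 6 belonged to MS4A3 (2) and MS4A6A (4). In MONO-MAC-6, 33 reached that level, of which 24 were all above, 1 all below and 8 overlapped. At a mean of 1 TPM or more, 6 of 18 MS4A transcripts were all above and 0 all below in MOLM-13, where 7.12% and 5.47% of all such transcripts were. In MONO-MAC-6 17 of 22 were all above and 0 all below, beside 23.4% and 7.63% of all. Nothing is read from these counts either, since the genes were chosen on this contrast.

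The leading MS4A7 transcript differed between the lines. MS4A7-201 and MS4A7-202 share their coding exons except exon 3 of MS4A7-201 (GRCh38 chromosome 11, 60385088 to 60385222), a coding exon of 135 bases, a whole number of codons, that MS4A7-202 skips, so that the coding sequence is 585 bases in place of 720. MS4A7-202 also ends further downstream, with a last exon of 2165 bases against 1025. The exon is shown here beside exon 3 of MS4A6A-208, which has the same length and is 64.4% identical without gaps (87 of 135 bases). After it come 2 junctions that differ between the forms. In the exon pair, capitals mark the bases that both genes share. In the junctions, 15 bases of exon 2 are in lower case and 15 of the next exon in capitals.

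MS4A7 exon 3, chr11:60385088-60385222, plus strand: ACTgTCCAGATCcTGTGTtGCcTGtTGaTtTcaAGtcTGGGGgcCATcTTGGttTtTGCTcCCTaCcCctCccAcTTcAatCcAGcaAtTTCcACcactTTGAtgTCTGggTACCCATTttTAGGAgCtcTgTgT

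MS4A6A exon 3, chr11:60179831-60179965, minus strand: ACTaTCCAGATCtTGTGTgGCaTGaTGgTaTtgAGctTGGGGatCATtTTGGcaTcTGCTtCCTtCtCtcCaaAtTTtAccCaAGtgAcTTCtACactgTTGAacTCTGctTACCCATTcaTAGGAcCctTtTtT

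MS4A7-201, exon 2 to exon 3: accaccgttcttgggACTGTCCAGATCCTG

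MS4A7-202, exon 2 to exon 4: accaccgttcttgggTTTGGCATTACTGGA

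In MOLM-13 the estimated TPM of MS4A7-202 was the higher. MS4A7-202 had 11.1, 9.71 and 9.07 TPM with DMSO and 10.7, 9.94 and 10.3 TPM with A9, whereas MS4A7-201 had 0.814, 0.788 and 1.53 TPM with DMSO and 1.09, 0.894 and 0.566 TPM with A9. In MONO-MAC-6 that of MS4A7-201 was the higher instead. MS4A7-201 had 19.6, 29.4 and 24.3 TPM with DMSO and 44.8, 47.3 and 45.7 TPM with A9, and MS4A7-202 had 3.68, 2.93 and 2.43 TPM with DMSO and 8.09, 10.6 and 8.99 TPM with A9. The ratio of MS4A7-201 to MS4A7-202 was 0.0734 to 0.168 with DMSO and 0.0548 to 0.101 with A9 in MOLM-13, and 5.34 to 10.0 and 4.48 to 5.54 in MONO-MAC-6, so that the lines did not overlap in either treatment. This difference between the lines was not tested, because their tables are separate. Reads over the junctions or the last exon were not counted. Skipping of exon 3 and use of the longer last exon therefore cannot be told apart in it.

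**Figure D2:**
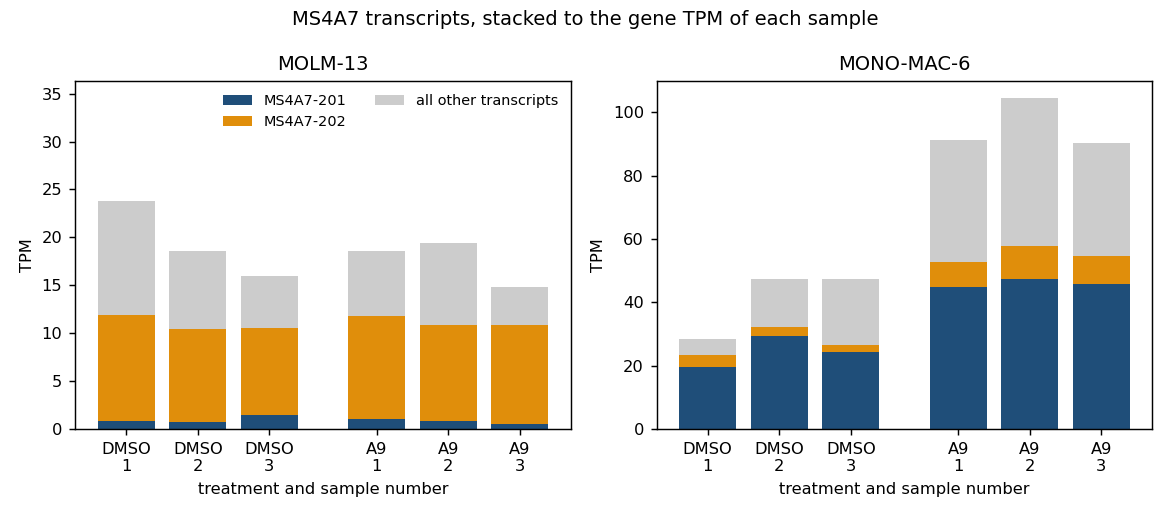
MS4A7 TPM in each sample, stacked by transcript (blue, MS4A7-201 with exon 3; orange, MS4A7-202 without it; grey, all others), for MOLM-13 (left) and MONO-MAC-6 (right, a larger scale). MS4A7-202 makes up most of the named forms in MOLM-13 and MS4A7-201 in MONO-MAC-6, where the mean total is 41.1 TPM with DMSO and 95.4 TPM with A9.

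Within MONO-MAC-6, the make-up of MS4A7 also moved with A9. MS4A7-201 made up 69.04%, 62.0% and 51.4% of the gene in the DMSO samples and 49.1%, 45.2% and 50.6% in the A9 samples, all below. The 5 transcripts annotated as retaining an intron summed to 6.20 ± 3.43 TPM with DMSO and 22.8 ± 2.98 TPM with A9 (SD, n = 3). Their share was 8.02% to 18.4% with DMSO and 22.5% to 24.9% with A9, the lowest control value being that of DMSO sample 1. In MOLM-13 the share overlapped, at 22.1% to 26.3% with DMSO and 14.6% to 26.2% with A9.

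MS4A6A was spread over 21 transcripts. Its leading coding form, MS4A6A-208, had 7.68, 7.53 and 7.48 TPM with DMSO and 13.5, 14.1 and 16.1 TPM with A9 in MOLM-13, and 0.932, 1.36 and 1.15 against 6.83, 8.47 and 7.31 TPM in MONO-MAC-6. The treated samples were all above in both lines. Its share of the gene did not separate the groups, at 25.5% ± 0.963 with DMSO and 26.6% ± 3.76 with A9 in MOLM-13 and at 22.8% ± 1.58 and 27.0% ± 2.77 in MONO-MAC-6 (SD, n = 3). MS4A6A-213, which starts at an exon further upstream, had treated samples all above in TPM and all below in share in both lines: 16.0% ± 0.492 to 13.6% ± 1.33 in MOLM-13 and 15.4% ± 2.82 to 11.6% ± 0.424 in MONO-MAC-6 (SD, n = 3). Of the short forms that retain an intron, MS4A6A-215 held 28.3% ± 3.29 of the gene with DMSO and 18.4% ± 2.56 with A9 in MONO-MAC-6, and MS4A6A-212 held 4.21% ± 1.26 and 8.85% ± 1.22 (SD, n = 3), neither overlapping. In MOLM-13 the shares of both overlapped.

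**Figure D3:**
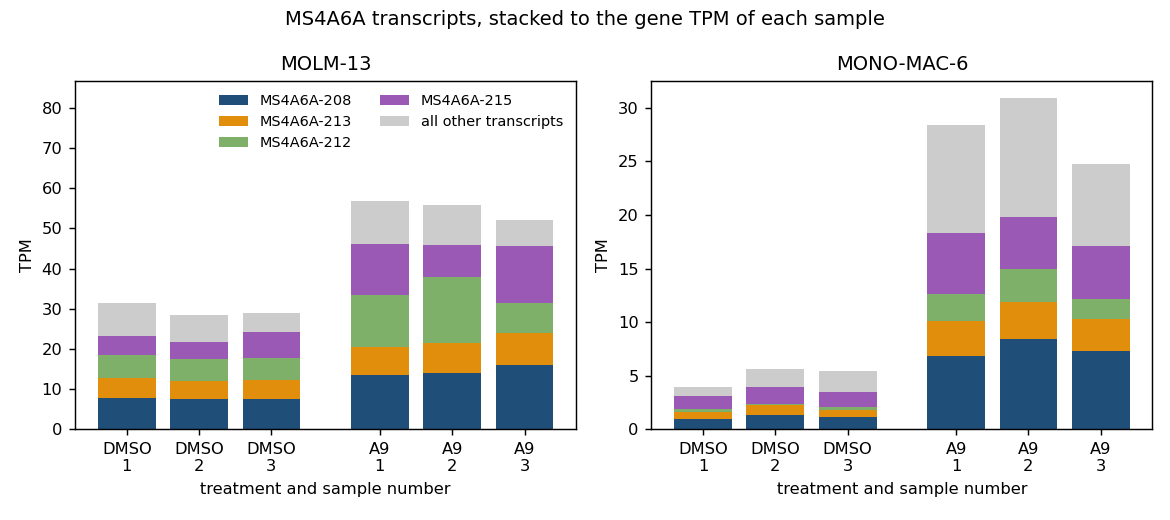
MS4A6A TPM in each sample, stacked by transcript (blue, MS4A6A-208; orange, MS4A6A-213; green, MS4A6A-212; purple, MS4A6A-215; grey, all others), for MOLM-13 (left) and MONO-MAC-6 (right, a smaller scale). Each of the 4 named transcripts is higher in every A9 sample than in any DMSO sample of its line.

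Grouped by start, the 9 MS4A6A transcripts that begin between 60183030 and 60183743 went from 15.9 ± 0.537 to 31.6 ± 4.03 TPM in MOLM-13 and from 2.13 ± 0.377 to 14.3 ± 2.23 TPM in MONO-MAC-6 (SD, n = 3). The 8 that begin further upstream, between 60183966 and 60184666, went from 6.85 ± 1.17 to 9.95 ± 0.833 TPM and from 1.34 ± 0.487 to 6.62 ± 0.827 TPM. The treated samples were all above for both start regions in both lines. The upstream share was lower in every A9 sample than in any DMSO sample in MOLM-13 (19.5% to 25.5% with DMSO, 17.2% to 19.5% with A9, the nearest samples being almost level) and overlapped in MONO-MAC-6.

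MS4A3 had 2 leading coding transcripts. MS4A3-201, with 642 coding bases, went from 7.86 ± 1.06 to 15.9 ± 3.19 TPM in MOLM-13 and from 46.9 ± 2.70 to 54.2 ± 4.09 TPM in MONO-MAC-6 (SD, n = 3). MS4A3-203, which lacks exons 2 and 3 of MS4A3-201 and has 273 coding bases, went from 6.17 ± 0.807 to 9.86 ± 3.00 TPM and from 25.5 ± 7.61 to 35.9 ± 1.90 TPM. The treated samples were all above for both transcripts in both lines, and the share of neither separated the groups. The 1 transcript that was all below in MONO-MAC-6 was MS4A3-206, a retained-intron form at 0.748 ± 0.930 TPM with DMSO that was listed at 0 in the A9 samples. Its DMSO samples had 0.455, 1.79 and 2.02e-06 TPM, so that DMSO sample 3 was in effect at 0 as well.

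MS4A14 overlaps MS4A7 at its start. The first exon of MS4A14-209, from 60378530 to 60378664, lies within the first exon of MS4A7 and ends at the same base, so reads there can belong to either gene. MS4A14-209 held 54.0% ± 14.2 of MS4A14 TPM with DMSO and 35.4% ± 4.54 with A9 in MONO-MAC-6 (SD, n = 3). Both its share and its TPM overlapped between the groups. The 10 transcripts that start at MS4A14's own promoter had 0.289, 0.581 and 0.944 TPM with DMSO and 1.74, 2.15 and 2.23 TPM with A9 there, all above, so the higher level was also seen without the shared exon. In MOLM-13 they overlapped, at 1.02 ± 0.739 and 0.576 ± 0.340 TPM (SD, n = 3).

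The rest of the cluster was almost silent. It holds 16 protein-coding MS4A genes over 744.718 kb (GRCh38 chromosome 11, 60056587 to 60801305), and the 11 not followed here all had group means under 1 TPM in both lines. The highest was MS4A2, with group means up to 0.419 TPM in MOLM-13 and 0.959 TPM in MONO-MAC-6, where A9 sample 1 had 1.03 TPM. MS4A1 was listed at 0 in every sample of both lines. With the related tetraspan genes TMEM176A and TMEM176B, the list of other family genes held 13 genes, of which MOLM-13 had 0 that could be tested and MONO-MAC-6 had 2. TMEM176B, a myeloid gene of the same protein superfamily, had 25.4, 21.8 and 22.9 TPM with DMSO and 35.6, 38.6 and 40.2 TPM with A9 in MONO-MAC-6, and rose by 0.68 on the log2 scale (SE 0.10, limma adjusted p 0.0235). This call was lost with median-ratio scaling (limma adjusted p 0.169) and in 5 of the 6 fits on 5 samples, with limma adjusted p up to 0.169, while without DMSO sample 1 it was 0.000216. TMEM176A went from 26.9 ± 1.65 to 31.9 ± 1.42 TPM (SD, n = 3; limma adjusted p 0.232).

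Genes that flank the cluster were compared as the local background. Within 1 Mb on either side lie 54 other protein-coding genes, of which 25 passed the MOLM-13 filter and 29 the MONO-MAC-6 one. None passed the test in MOLM-13 (limma, 2 with all treated samples below and 1 with all above), where 0.121% of all genes did and 915 genes lay under 0.05 before adjustment. Of the MONO-MAC-6 neighbours 1 rose and 1 fell, against 3.36% of all genes called. The median log2 difference of the neighbours was -0.04 for MOLM-13 and 0.13 for MONO-MAC-6, beside -0.05 and 0.16 over all genes tested. TKFC, a triokinase, rose by 0.55 (limma adjusted p 0.0488), and FADS2, a fatty acid desaturase, fell by 1.51 (limma adjusted p 0.00631). The TKFC call held in 1 of the 6 fits on 5 samples, that without DMSO sample 1, and FADS2 was missed without A9 sample 2 or 3, with limma adjusted p up to 0.0558.

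**Figure D4:**
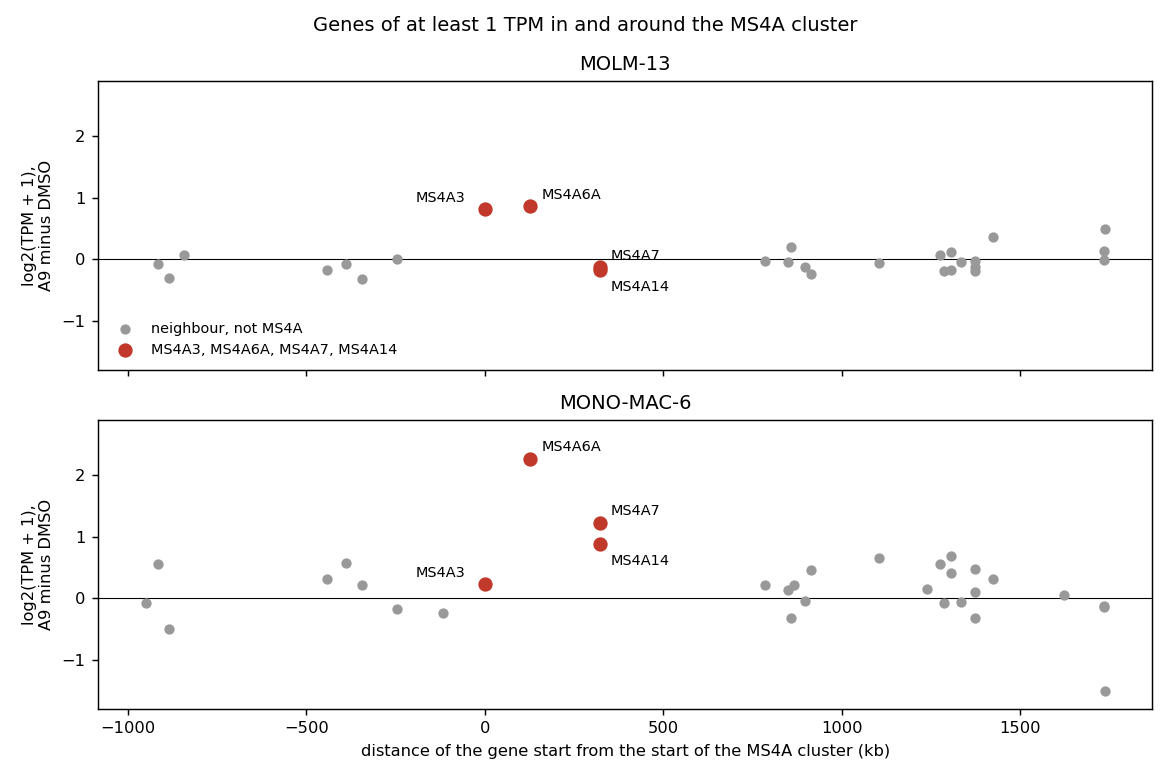
Difference in log2(TPM + 1), A9 minus DMSO, for genes of at least 1 TPM in and within 1 Mb of the MS4A cluster, by distance of the gene start from the cluster's start in kb (red, MS4A3, MS4A6A, MS4A7 and MS4A14; grey, neighbours), in MOLM-13 (top) and MONO-MAC-6 (bottom). MS4A3 and MS4A6A stand at 0.81 and 0.87 in MOLM-13 and MS4A6A at 2.27 in MONO-MAC-6, where FADS2 is the low point at -1.51.

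Partners of the MS4A proteins were taken as a list of 11 genes. It held receptor genes for GM-CSF, IL-3 and G-CSF and the cell-cycle genes CDK2 and CDKN3, linked to MS4A3. The others were the dectin-1 and TREM2 receptors with their adaptors. In each line 10 of the 11 were tested. In MOLM-13 1 rose, and in MONO-MAC-6 2 rose, with none lower, beside 0.121% and 3.36% of all genes called in either direction. The list medians were 0.18 and 0.32, beside -0.05 and 0.16 over all genes tested. The list was chosen with earlier results of these data known, so nothing is read from the counts. TREM2, a lipid-sensing receptor of macrophages whose soluble form in spinal fluid has been linked to the MS4A locus, had 0.504, 0.540 and 0.589 TPM with DMSO and 2.60, 3.57 and 2.72 TPM with A9 in MOLM-13. It rose by 1.35 on the log2 scale (SE 0.13, limma adjusted p 0.0358), a call lost whichever of the 6 samples was left out (limma adjusted p 0.0896 to 0.304). In MONO-MAC-6 TREM2 had 2.15, 1.96 and 2.27 TPM with DMSO and 17.9, 21.5 and 19.4 TPM with A9, a rise of 2.72 (SE 0.13, limma adjusted p 0.000925) that held in all 6 such fits. TYROBP, the adaptor through which TREM2 signals, had 10.8, 8.73 and 8.82 TPM with DMSO and 40.4, 56.5 and 48.4 TPM with A9 there and rose by 2.24 (SE 0.16, limma adjusted p 0.00207), also in all 6 fits. In MOLM-13 TYROBP went from 35.8 ± 2.85 to 42.4 ± 1.74 TPM (SD, n = 3; limma adjusted p 0.522). CDK2 and CDKN3 did not pass in either line. CLEC7A, which encodes dectin-1, was not tested, with group means under 1 TPM in both lines. The MONO-MAC-6 samples held 0.326, 0.462 and 0.221 TPM with DMSO and 0.638, 0.762 and 1.02 TPM with A9, all above.

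**Figure D5:**
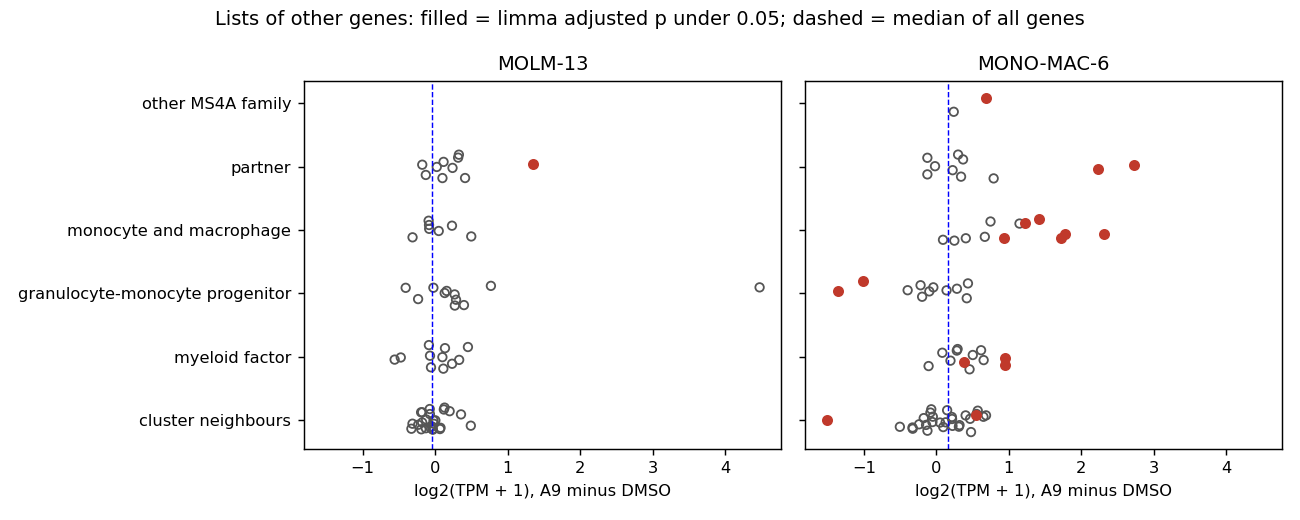
Difference in log2(TPM + 1), A9 minus DMSO, for each tested gene of 6 lists (rows) in MOLM-13 (left) and MONO-MAC-6 (right), with filled points for a limma adjusted p under 0.05 and a dashed line at the median of all genes, -0.05 and 0.16. The filled partner points are TREM2 at 1.35 in MOLM-13 and TREM2 and TYROBP at 2.72 and 2.24 in MONO-MAC-6.

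The genes whose levels ran most alike with each MS4A gene were named by Pearson's r of log2(TPM + 1) among protein-coding genes of at least 5 TPM, as a description. The samples of a line share a table and a treatment, so that with 6 samples many genes reach a high r: over 0.95 for 101 genes with MS4A6A and 1182 with MS4A7 in MOLM-13. For MS4A6A the closest were FAM216A (0.996), PRRT4 (0.992) and NDFIP1 (0.990) in the 6 MOLM-13 samples and LMNA (0.999), PCOLCE2 (0.999) and LYZ (0.998) in the 6 MONO-MAC-6 samples. Over all 12 samples, with each line's mean subtracted, they were CCDC159 (0.988), CLU (0.985) and GRINA (0.983). For MS4A3 the 12-sample list was KCTD17 (0.966), MNDA (0.966), a myeloid nuclear antigen, and OTULINL (0.947). It was TSPAN12 (0.993), DEF8 (0.988) and ENDOV (0.987) in MOLM-13 and CSAD (0.989), ORC6 (0.987) and NPIPA1 (0.976) in MONO-MAC-6. For MS4A7 it was IL6R (0.990), CD93 (0.985) and RNFT1 (0.985) over 12 samples, SRFBP1 (0.9995), ITGA5 (0.997) and POM121C (0.997) in MOLM-13, and VSIG10 (0.999), GM2A (0.998) and MEGF9 (0.998) in MONO-MAC-6. For MS4A14 the closest gene over 12 samples was MS4A7 itself (0.985), with which it shares an exon, then CD93 (0.984) and TMEM63A (0.981). In single lines MS4A14 was closest to PNISR (0.998), SSH2 (0.995) and EPRS (0.995) in MOLM-13 and to GBP5 (0.999), MEGF9 (0.999) and PDE6G (0.998) in MONO-MAC-6.

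The MS4A genes past the filter, all but MS4A4A, were also set against each other. Over the 6 MOLM-13 samples, MS4A3 and MS4A6A had an r of 0.97 and MS4A7 and MS4A14 one of 0.98. Across the pairs r lay between -0.28 and -0.15. In MONO-MAC-6 all pairs were at 0.86 or above. Over all 12 samples, with each line's mean subtracted, the same 2 pairs had 0.58 and 0.99, and across them r lay between 0.16 and 0.84. These r hold the treatment difference on which the genes were chosen, and MS4A7 and MS4A14 share an exon. Nothing is read from them.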

How the data were processed

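RNA was sequenced from 36 libraries of 12 samples (poly(A) libraries, paired reads, per the labels' protocols). The authors deposited 1 table of TPM per transcript and line, with no counts; the submitters' processing notes name kallisto, limma and GRCh38, with no versions. Of 207175 transcripts, 162561 (78.5%) matched GENCODE 29 and were summed to 35490 genes, holding 89.9% to 91.4% of a library's TPM. Libraries that share a first number were averaged as 1 sample: they had a median SD of 0.072 (MOLM-13) and 0.076 (MONO-MAC-6) on the log2 scale, against 0.175 and 0.21 among libraries sharing the second number.

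All genes that averaged 1 TPM or more in a group (11602 in MOLM-13, 12876 in MONO-MAC-6) were fitted per line with limma 3.58.1 (R 4.3.3; trend, robust) on log2(TPM + 1), 3 samples against 3, with Benjamini-Hochberg adjustment over all of them and a threshold of 0.05. The script was tested on simulated data. The alternatives were a pseudocount of 0.1, no filter, median-ratio scaling, a removed length trend, the replicate number as a block, the highest single transcript for the MS4A genes, and leaving out each sample. The MS4A genes and all lists were chosen with earlier results of these data known. From each list, up to 4 called genes per direction and line were named, largest change first. The 3 genes most like each MS4A gene were named by Pearson's r. Promoters came from RefSeq and exon sequences from GENCODE. A planned comparison of the protein sequences was not run. The result of 1 marker list is not reported here.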

Additional observations from a re-analysis of the deposited data

How the results depend on the processing

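The sign of the difference between A9 and DMSO was the same in all 12 alternatives for MS4A3 and MS4A6A in MOLM-13 and for MS4A3, MS4A6A, MS4A7 and MS4A14 in MONO-MAC-6. In MOLM-13 it turned in 2 of 12 for MS4A7 (0.052 with the highest single transcript, 0.019 without DMSO sample 1) and for MS4A14 (0.11 and 0.0026). For genes whose groups did not overlap, most of the 12 could not turn the sign. No filter and the replicate block leave a difference as it was, and another pseudocount or leaving out 1 sample keeps its sign. The count of 12 is therefore no test of those genes. With the highest single transcript in place of the gene sum the MONO-MAC-6 differences were 0.21 for MS4A4A, 1.99 for MS4A6A, 0.90 for MS4A7 and 0.35 for MS4A14. With scaling MS4A3 had 0.057 there, and with a pseudocount of 0.1 MS4A14 had 1.30.

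In MOLM-13, 14 genes were called, and 4 with no filter, 48 with scaling, 184 after removing the length trend, 87 under the replicate block and 2 to 8 leaving out 1 sample. In MONO-MAC-6, 433 were called, and 254 with no filter, 1117 after removing the length trend, 94 under the replicate block and 58 to 3190 leaving out 1 sample, the highest without DMSO sample 1. The 433 were 323 higher and 110 lower, and with scaling 340 of 552 and with the length trend removed 585 of 1117 were higher.

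Of the lists in MOLM-13, partners had 0 called with no filter, 2 with the length trend removed and 0 leaving out any sample, progenitor genes 1 after removing the length trend and 2 under the replicate block, and factors 1 with the length trend removed. In MONO-MAC-6 the other family genes had 0 with no filter, scaling or the replicate block, progenitor genes 1 with no filter or scaling, factors 1 with no filter and 0 with the replicate block, and neighbours 1 with a pseudocount of 0.1, no filter or the replicate block and 5 with the length trend removed. Leaving out 1 sample there gave 0 to 2 for the other family genes, 2 to 5 for partners, 2 to 9 for monocyte and macrophage genes, 0 to 6 for progenitor genes, 0 to 6 for factors and 0 to 11 for neighbours, each highest without DMSO sample 1. The cause was not tested.

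The samples share replicate numbers, and deviations from the group means were correlated between same-numbered samples. The values were 0.54, -0.06 and 0.79 in MOLM-13 and -0.07, 0.18 and -0.22 in MONO-MAC-6. Those of MONO-MAC-6 gave no sign of a pairing. Those of MOLM-13 were mixed, and whether same-numbered samples there share an effect was not tested. The replicate block was kept as an alternative in both lines, and for MOLM-13 it called 87 genes against 14 in the main fit. With TPM only, the precision that depth gives to genes near 1 TPM, MS4A14 and MS4A4A among them, is unknown.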

Other observations

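Lists of genes that mark the stages between which the MS4A genes divide were counted in the same fits. These lists were chosen with earlier results of these data known, so nothing about a change of stage is read from their counts. Of 25 monocyte and macrophage genes, 7 were tested in MOLM-13, where 0 passed, with a median log2 difference of -0.08. In MONO-MAC-6, 12 were tested and 6 rose, with a median of 1.04 beside 0.16 over all genes. SIGLEC1, a macrophage lectin, rose from 0.672 ± 0.211 to 7.28 ± 0.437 TPM (SD, n = 3; log2 difference 2.31, limma adjusted p 0.00134). CD14, the lipopolysaccharide co-receptor of monocytes, rose 4.15-fold from 3.14 ± 0.529 TPM (SD, n = 3; 1.77, limma adjusted p 0.00256). CD68, a lysosomal protein of macrophages, rose by 1.72 (limma adjusted p 0.00539), and MERTK, a receptor for dying cells, by 1.42 (limma adjusted p 0.00669). The other called genes were APOE and GPNMB. SIGLEC1 and CD14 passed in all 6 fits that left out 1 sample, CD68 and MERTK in 4, missing without A9 sample 2 or 3 (limma adjusted p up to 0.0513 and 0.0636), GPNMB in 2, and APOE in 1, that without DMSO sample 1. C1QA, C1QB and C1QC, complement genes of tissue macrophages, were listed at 0 in every sample of both lines.

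Of 14 genes of granulocyte-monocyte progenitors, the stage that MS4A3 marks, 11 were tested in each line. None passed in MOLM-13 (median 0.27, beside -0.05 over all genes), where 8 of the 11 differences were positive. There 5 genes had all treated samples above and 1 all below, beside 8.58% and 6.42% of all genes. Of the 11, 2 protease genes are named outside the naming rule, after their values were seen, and both were higher on average with A9. Genes of the list that were lower with A9 are not named here, so the 2 do not stand for the list. PRTN3 had 24.6 ± 28.7 TPM with DMSO and 344 ± 37.8 TPM with A9 (SD, n = 3), a log2 difference of 4.47 (limma adjusted p 0.156). ELANE was 1.69-fold higher on average (limma adjusted p 0.0876). In MONO-MAC-6 (median -0.10) 2 fell: the granule protease genes CTSG, by 1.36 (591 ± 89.2 to 229 ± 21.1 TPM, SD, n = 3; limma adjusted p 0.00564), and PRSS57, by 1.01 (limma adjusted p 0.0258). In that line 2 of the 11 genes had all treated samples above and 2 all below, beside 27.2% and 10.7% of all genes. Over all genes there the median was 0.16, and 3.36% were called in either direction. CTSG missed without A9 sample 2 or 3 (limma adjusted p up to 0.0532), and PRSS57 passed in 1 of the 6 fits, that without DMSO sample 1. Of 13 myeloid transcription factors, 11 were tested in MOLM-13, where 0 passed (median 0.10, beside -0.05 over all genes). In MONO-MAC-6, 12 were tested and 3 rose (median 0.42, beside 0.16 over all genes, of which 3.36% were called). They were KLF4 by 0.95 (limma adjusted p 0.0213), EGR1 by 0.94 (limma adjusted p 0.0249) and SPI1, which encodes PU.1, by 0.38 (limma adjusted p 0.0452). KLF4 and EGR1 passed in 2 of the 6 fits that left out 1 sample and SPI1 in 1. SPI1 also missed with median-ratio scaling (limma adjusted p 0.469).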
